A study of Mus musculus with 12 samples.

Results

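The expression of 10 genes of the lysosome, of progranulin and of autophagy was described in muscle satellite cells (SCs) that carried or lacked the transcription factor FoxM1. The genes were Grn, Psap, Ctsb, Ctsd, Ctsl, Ctsz, Lamp1, Lamp2, Gabarapl1 and Sqstm1, taken by symbol from the 13775 genes of the table. They were chosen because Grn was lower and Gabarapl1 higher in injured FoxM1-deficient SCs than in injured controls. The injured genotype comparison of all 10 genes is therefore given as values with no test.

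SCs were sorted from the muscle of 2-month-old mice as CD45-, Sca1-, CD11b-, CD31-, CD34+ and α7-integrin+ cells, and about 800 cells went into each library. All mice carried floxed FoxM1 alleles. FoxM1fl/fl mice served as controls (their SCs are called controls below), and FoxM1-cKO mice (FoxM1fl/fl,Pax7Cre/+) also carried a Cre recombinase expressed with Pax7, a gene of SCs. The 4 groups of 3 libraries were FoxM1fl/fl and FoxM1-cKO SCs from uninjured muscle (called quiescent in the labels) and from muscle injured with 1.2% BaCl2 (called activated), taken at 48 h post-injury. The protocol also names PBS alone, and whether uninjured muscle received it is not stated. The labels do not say which mouse gave which library, and p-values here measure the spread between libraries, which may be technical.

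The lysosome is the acidic organelle in which proteins, lipids and worn-out organelles are broken down. Its cathepsins are proteases made as inactive precursors, its membrane is lined by the glycoproteins Lamp1 and Lamp2, and prosaposin (Psap) is cut there into activators of lipid breakdown. Progranulin, the product of Grn, is secreted or carried to the lysosome, in part together with prosaposin. In autophagy a membrane closes around cargo and fuses with the lysosome. Proteins of the Gabarap and LC3 families sit on that membrane, and Sqstm1 (p62) links ubiquitin-tagged cargo to them. Autophagy has been linked to the activation of SCs.

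The values were FPKM, which scale reads by transcript length and by depth. The depth recovered from the steps between low values was 170701 to 642009 reads in uninjured libraries and 907558 to 2854546 reads in injured libraries. All 26 values of the 10 genes above 0 and under 30 reads were whole read numbers (within 0.02 reads plus 0.1%), as were 95.5% of such values over all genes. The 10 genes took 2 to 257 reads per uninjured library and 2648 to 12179 reads per injured library. Uninjured values of a few FPKM thus rest on single reads, and 1 read was worth 0.627 FPKM of Psap in FoxM1fl/fl uninjured 1 and 3.97 FPKM of Ctsz in FoxM1fl/fl uninjured 3. Fewer cells of a type and less RNA per cell cannot be told apart in such bulk libraries.

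The targeted gene FoxM1 stood at 5.48, 8.95 and 7.38 FPKM in uninjured FoxM1fl/fl libraries, 0 in all 3 uninjured FoxM1-cKO libraries, 32.8, 29.4 and 42.0 FPKM in injured FoxM1fl/fl libraries and 3.48, 1.28 and 0.832 FPKM in injured FoxM1-cKO libraries. Of its 5 values under 30 reads only 2 were whole read numbers, unlike most of the table, so the FoxM1 values may have been made another way and check the labels only with that limit. In all groups except injured FoxM1-cKO, 1 of the libraries was close to a mixture of its group's other libraries. FoxM1fl/fl uninjured 1 was close to 0.883 of library 2 plus 0.105 of library 3, FoxM1-cKO uninjured 2 to 0.439 of library 1 plus 0.526 of library 3, and FoxM1fl/fl injured 1 to 0.676 of library 2 plus 0.322 of library 3. In FoxM1fl/fl injured 1 the 9 detected genes of the set stood at 0.931 to 1.29 times that sum. The p-values treat all 12 libraries as independent. Without these 3 libraries limma called no gene in any comparison, and 158, 461, 654 and 1022 of 4956 genes had an unadjusted p under 0.05 in the uninjured genotype, injured genotype, FoxM1fl/fl injury and FoxM1-cKO injury comparisons. Of 11 SC markers, 2 to 3 were above 0 in uninjured FoxM1fl/fl and 2 to 4 in uninjured FoxM1-cKO libraries. After injury 3 to 8 were above 0 in FoxM1fl/fl and 8 to 9 in FoxM1-cKO libraries. Sdc4 stood at 104, 128 and 48.9 FPKM in uninjured controls, and at 0, 301 and 458 FPKM in uninjured FoxM1-cKO SCs. Itga7, which encodes the α7-integrin of the gate, was at 0 in 10 of 12 libraries. Vcam1 was at 0 in all 6 uninjured libraries and between 0 and 62.1 FPKM in the injured ones.

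**Figure D1:**
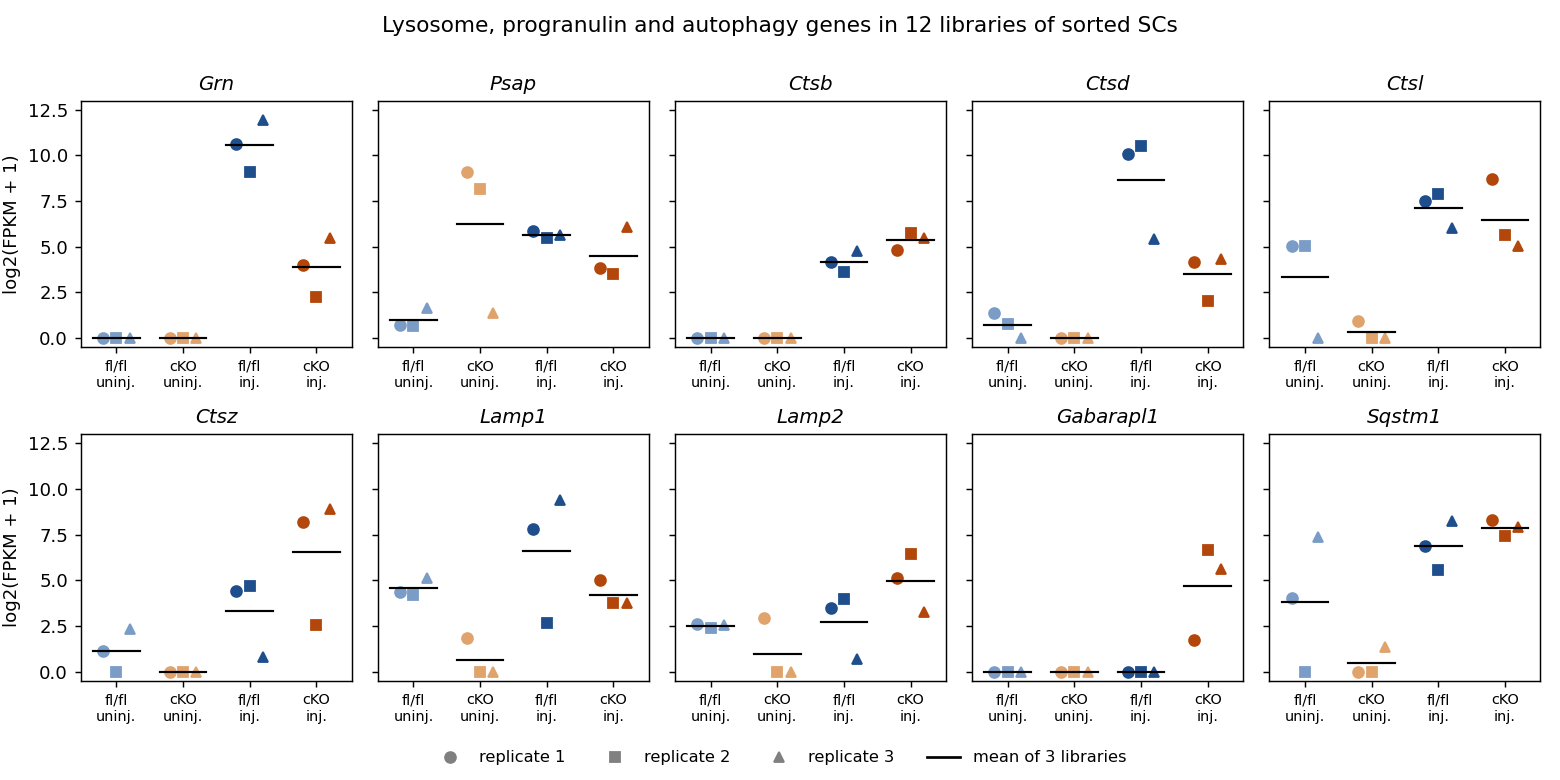
Each panel plots log2(FPKM + 1) of 1 gene in the 12 libraries, 3 per group, with a bar at the group mean. Grn, Ctsb and Gabarapl1 were at 0 in all 6 uninjured libraries, Grn was highest in injured FoxM1fl/fl libraries, and Gabarapl1 was above 0 in injured FoxM1-cKO libraries only.

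Grn, at chr11:102430315-102437048 (mm10, plus strand), encodes progranulin. It was at 0 FPKM in all 6 uninjured libraries. In injured FoxM1fl/fl SCs it stood at 1586, 535 and 3943 FPKM (4756, 1609 and 8373 reads). In injured FoxM1-cKO SCs it stood at 15.3, 3.79 and 43.1 FPKM (102, 15 and 208 reads). The lowest FoxM1fl/fl value was thus far above the highest FoxM1-cKO value, while both injured groups lay above both uninjured groups. The log2 difference of FoxM1-cKO from FoxM1fl/fl on the FPKM + 1 scale was -6.63 (SE 1.14, n = 3 and 3). Each SE in this text uses the spread shared by all 12 libraries, which for Grn includes the 6 uninjured values of 0. The log2 SD of Grn was 1.44 in injured FoxM1fl/fl and 1.60 in injured FoxM1-cKO libraries. The difference lay between -7.41 and -5.80 when any 1 of the 6 injured libraries was left out, and was -6.59 without FoxM1fl/fl injured 1. Against a floor of 3 reads in each uninjured library, mean Grn was at least 529-fold higher in injured controls and at least 3.06-fold higher in injured FoxM1-cKO SCs. The first limit was 278-fold without FoxM1fl/fl injured 3 and 978-fold without FoxM1fl/fl uninjured 3, and the second 1.41-fold without FoxM1-cKO injured 3. Here and below, a floor of 3 reads allows for the counting of reads alone. It does not allow for the spread between libraries of a group, so these limits hold for the sequenced libraries only. Of the FPKM summed over the 10 genes, Grn took 47.9%, 22.5% and 77.5% in injured FoxM1fl/fl libraries 1, 2 and 3, while its share of injured FoxM1-cKO libraries ran from 0.775% to 4.36%.

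The 5 tested genes whose pattern over the 12 libraries was most like that of Grn were Cops2, Ranbp1, Cpne3, Mapk8ip3 and Nsfl1c, with Pearson r of 0.973 to 0.979 on the log2 scale. Each was at 0 in all uninjured libraries. Ranbp1, a partner of the nuclear transport GTPase Ran, stood at 18.7, 23.0 and 54.8 FPKM in injured controls, against 3.55, 3.81 and 8.94 FPKM in injured FoxM1-cKO SCs. These correlations describe 12 points that share 6 values of 0 and the 3 libraries that follow weighted sums.

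Prosaposin, which binds progranulin, did not follow Grn. Psap (chr10:60277627-60302597, plus strand) stood at 0.627, 0.586 and 2.15 FPKM in uninjured controls, 1 read in each. Uninjured FoxM1-cKO SCs had 553, 289.5 and 1.58 FPKM (251, 133 and 1 reads). The high uninjured values thus came from FoxM1-cKO libraries 1 and 2, and library 2 follows a weighted sum of 1 and 3. Injured FoxM1fl/fl SCs had 58.1, 43.4 and 49.3 FPKM, the narrowest spread of Psap among the 4 groups on the log2 scale (SD 0.21). Injured FoxM1-cKO SCs had 13.4, 10.2 and 66.4 FPKM, which overlap with these (log2 difference -1.20, SE 1.71). Over the 12 libraries Psap and Grn had a Pearson r of 0.33.

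Among the cathepsins, the aspartic protease gene Ctsd had the pattern closest to Grn within the set (r = 0.90 over 12 libraries). Ctsd (chr7:142375911-142388038, minus strand) was at 1.57, 0.732 and 0 FPKM in uninjured controls, and at 0 in the 3 uninjured FoxM1-cKO libraries. In injured FoxM1fl/fl SCs it stood at 1098, 1459 and 42.0 FPKM. In injured FoxM1-cKO SCs it stood at 16.6, 3.05 and 19.4 FPKM. The injured groups did not overlap, although FoxM1fl/fl library 3, which had the highest Grn value, lay far below libraries 1 and 2. FoxM1fl/fl injured 1 follows a weighted sum of libraries 2 and 3, so the high Ctsd level in controls rests on library 2. The log2 difference was -5.18 (SE 1.35), and between -6.80 and -4.26 with 1 injured library left out. Without FoxM1fl/fl injured 1 it was -4.47.

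The cysteine protease gene Ctsb (chr14:63122462-63145923, plus strand) lay the other way. It was at 0 in all 6 uninjured libraries, at 16.8, 11.3 and 26.3 FPKM in injured controls, against 27.6, 52.4 and 44.5 FPKM in injured FoxM1-cKO SCs. The injured groups did not overlap, but the highest FoxM1fl/fl and the lowest FoxM1-cKO library lay close together. The log2 difference was 1.18 (SE 0.86), the smallest of the 4 genes whose injured groups were apart.

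Ctsl and Ctsz, which encode further cysteine cathepsins, overlapped between the injured groups. Ctsl (chr13:64359337-64370890, minus strand) stood at 183, 238 and 63.6 FPKM in injured controls, against 418, 49.3 and 31.5 FPKM in injured FoxM1-cKO SCs. Ctsz (chr2:174427493-174439039, minus strand) stood at 20.03, 24.3 and 0.765 FPKM in the former and at 288, 4.92 and 479 FPKM in the latter. In each FoxM1-cKO group of values 1 library thus stood apart from the others, high for Ctsl and low for Ctsz. The log2 differences were -0.69 (SE 1.503) for Ctsl and 3.26 (SE 1.60) for Ctsz. The sign of Ctsl depended on single libraries, with a range of -1.81 to 0.03 when 1 injured library was left out.

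The membrane glycoprotein genes differed from each other. Lamp1 (chr8:13159161-13175338, plus strand) stood at 222, 5.24 and 662 FPKM in injured controls, against 31.0, 12.7 and 12.6 FPKM in injured FoxM1-cKO SCs. The FoxM1fl/fl values spanned both sides of the FoxM1-cKO values, and library 2, the lowest, rests on 15 reads. Lamp2 (chrX:38401357-38456454, minus strand) stood at 9.96, 14.5 and 0.611 FPKM in injured controls, against 34.1, 84.2 and 8.61 FPKM in injured FoxM1-cKO SCs. FoxM1fl/fl injured 3, with 2 reads of Lamp2, held the highest Lamp1 and Grn values. The log2 differences were -2.42 (SE 1.52) for Lamp1 and 2.24 (SE 1.26) for Lamp2.

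Both autophagy genes had their highest group median in injured FoxM1-cKO SCs. Gabarapl1 (chr6:129533160-129542346, plus strand), of the Gabarap family, was at 0 in 9 libraries and at 2.31, 100.3 and 47.7 FPKM (12, 309 and 179 reads) in injured FoxM1-cKO SCs. It passed the filter of 1 FPKM in 3 libraries through this group alone. Mean Gabarapl1 was at least 34.3-fold higher than a floor of 3 reads in each injured FoxM1fl/fl library, and at least 17.1-fold without FoxM1-cKO injured 2. Sqstm1 (chr11:50199366-50210827, minus strand), the cargo receptor p62, stood at 118, 45.7 and 298 FPKM in injured controls, against 315, 167 and 236 FPKM in injured FoxM1-cKO SCs. These groups overlapped (log2 difference 0.98, SE 1.59).

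Among the tested genes most like Gabarapl1 over the 12 libraries were Kctd17, Ppp4r1, Usp36 and Prrx2 (Pearson r 0.981 to 0.998). Each of these had its highest value in FoxM1-cKO injured 2 and at most 0.203 FPKM in any FoxM1fl/fl library. Usp36, a deubiquitinase of the nucleolus, stood at 1.24, 28.5 and 6.77 FPKM in injured FoxM1-cKO SCs and at 0 in the other 9 libraries. These likenesses rest on 3 values of Gabarapl1 above 0. Like Gabarapl1, the genes named passed the filter of 1 FPKM through the injured FoxM1-cKO group alone. Their low values in FoxM1fl/fl libraries follow from that choice, so nothing is read from them. Of the relatives of Gabarapl1, Gabarap stood at 0.578, 0 and 0.816 FPKM in injured controls, against 14.3, 10.9 and 8.97 FPKM in injured FoxM1-cKO SCs, and Map1lc3a at 30.2, 0 and 101 FPKM against 236, 0 and 0.436 FPKM.

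Over the set, 5 genes lay lower and 5 higher in injured FoxM1-cKO SCs, with a median log2 difference of 0.14 beside 0.32 over all tested genes. The injured groups did not overlap for Grn and Ctsd, which were lower, and for Ctsb and Gabarapl1, which were higher. Over all 4956 tested genes the injured groups did not overlap for 23.1%. Since the set was chosen on this comparison, nothing is read from these counts.

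**Figure D2:**
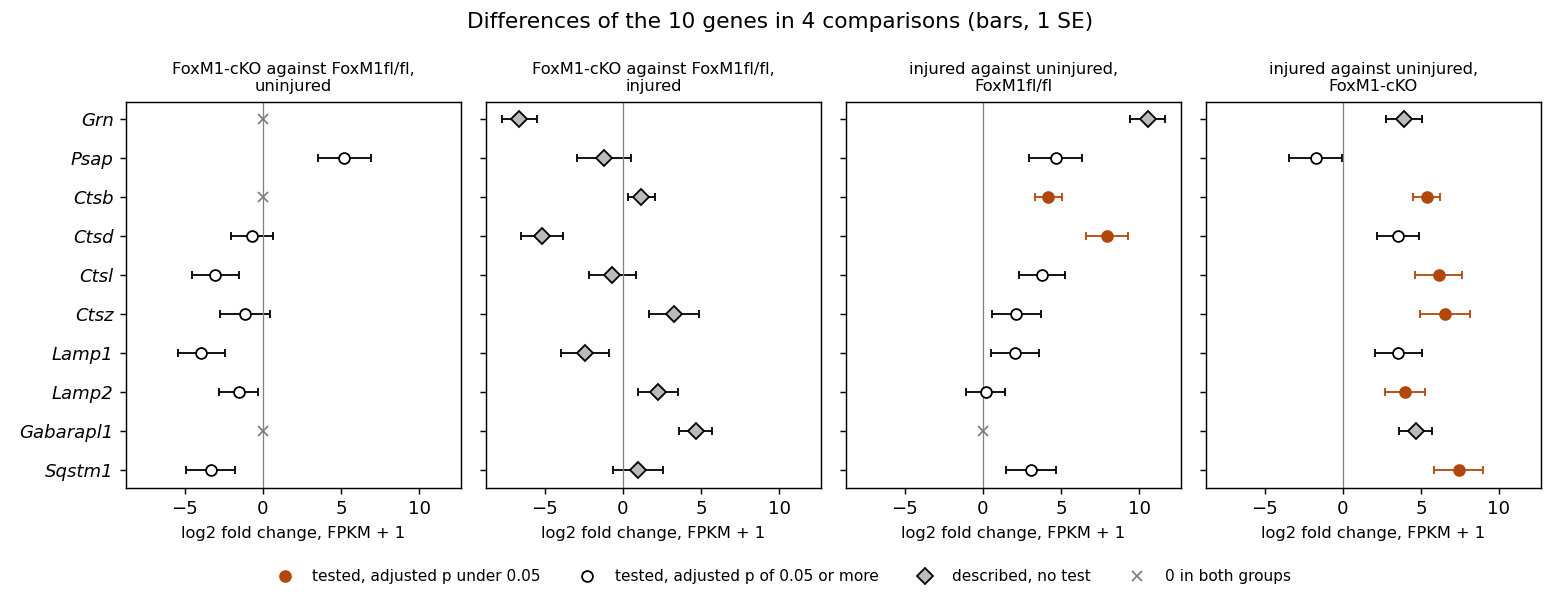
Points give the log2 difference of each gene on the FPKM + 1 scale in 4 comparisons, with bars of 1 SE, and the fill shows whether it was tested. In the injured genotype comparison the differences run from -6.63 for Grn to 4.66 for Gabarapl1. A difference from a group at 0 depends on the pseudocount. Each SE uses the spread shared by all 12 libraries, with groups at 0 included.

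Macrophages are rich in lysosomes and express Grn and cathepsins, and macrophage markers also varied among these libraries, although the gate excluded CD45+ and CD11b+ cells. Of 12 macrophage and leukocyte markers in the table, 5 to 10 were above 0 in injured FoxM1fl/fl libraries, with a summed level of 631 to 2072 FPKM. In injured FoxM1-cKO libraries 4 to 6 were above 0, with a sum of 12.4 to 988 FPKM. Tyrobp, an adaptor of myeloid receptors, stood at 158, 133 and 170 FPKM in the former and at 0, 1.98 and 0 FPKM in the latter, so that it separated the injured groups as Grn did. Cd14 also separated them, at 413, 366 and 549 FPKM against 348, 1.13 and 1.23 FPKM, with FoxM1-cKO injured 1 close to the controls. Lyz2, a lysozyme of myeloid cells, stood at 454, 30.2 and 1330 FPKM in controls, the same order as Grn, against 621, 4.04 and 99.9 FPKM in FoxM1-cKO SCs, where FoxM1-cKO injured 1 had only 15.3 FPKM of Grn. Of the defining genes, Ptprc was at 0 in 5 of the 6 injured libraries and at 0.103 FPKM in the other, and Csf1r was at 0 in 5 and at 0.166 FPKM in FoxM1fl/fl injured 1. In uninjured libraries the list summed to 0 to 1612 FPKM in FoxM1fl/fl and 0 in FoxM1-cKO SCs. Before injury Ptprc stood at 224, 248 and 0 FPKM and Fcer1g at 1287, 1364 and 0 FPKM in FoxM1fl/fl libraries 1, 2 and 3. Of 8 markers of fibro-adipogenic cells in the table, 7 were above 0 in each injured FoxM1fl/fl library, with a sum of 354 to 419 FPKM. In injured FoxM1-cKO libraries 7 to 8 were above 0, with a sum of 568 to 1223 FPKM. Their uninjured sums were 452 to 1758 FPKM in FoxM1fl/fl and 2068 to 3522 FPKM in FoxM1-cKO SCs. The part of either kind of cell in the differences was not tested.

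**Figure D3:**
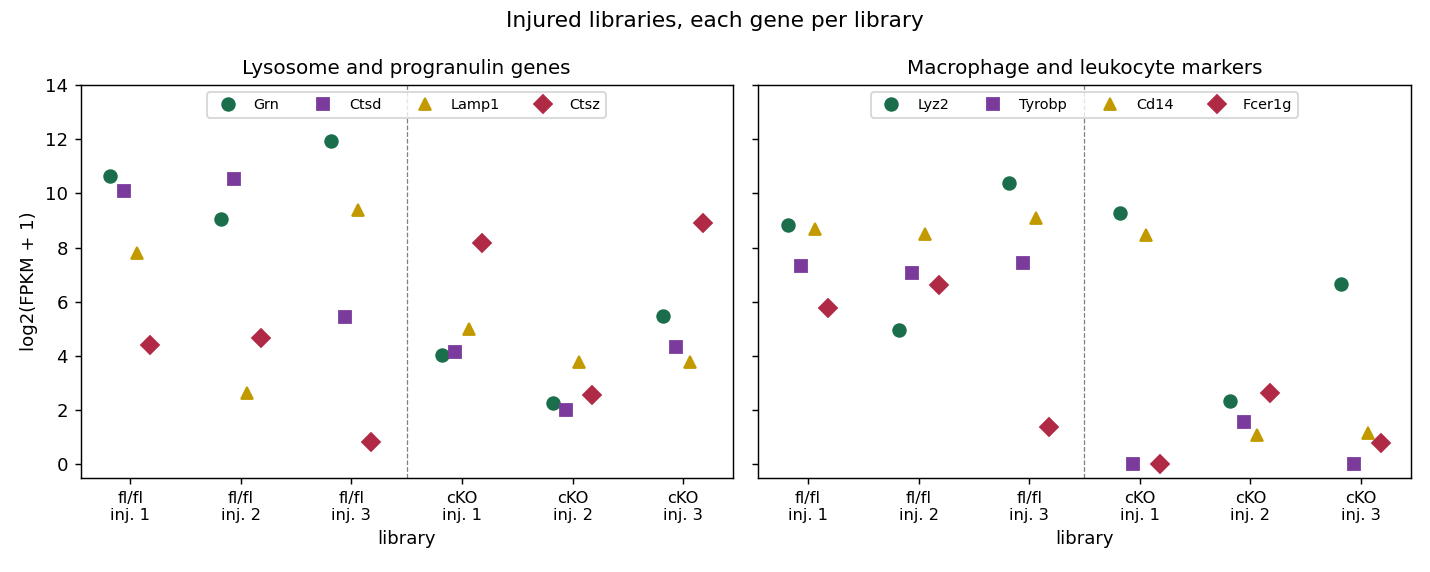
Points give log2(FPKM + 1) of 4 genes of the set (left) and 4 macrophage and leukocyte markers (right) in the 6 injured libraries. Grn, Tyrobp and Cd14 were higher in each FoxM1fl/fl library than in each FoxM1-cKO library, while Lyz2 and Fcer1g overlapped between the groups.

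In uninjured mice, limma called none of the 10 genes between FoxM1-cKO and FoxM1fl/fl SCs at an adjusted p under 0.05, beside 1.53% of all tested genes. The unadjusted p was under 0.05 for Psap and Lamp1, beside 18.9% of all tested genes. Lamp1 was the 1 gene of the set whose uninjured groups did not overlap (7.1% of all tested genes), at 19.4, 17.5 and 33.4 FPKM in controls (26, 25 and 13 reads), against 2.63, 0 and 0 FPKM in FoxM1-cKO SCs (1, 0 and 0 reads). Its log2 difference was -3.93 (SE 1.52, limma adjusted p = 0.182). For Psap the difference was 5.21 (SE 1.71, limma adjusted p = 0.167). Without FoxM1-cKO uninjured 3, the library with 1 read, Psap was called (difference 7.64, limma adjusted p = 0.00318).

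The other detected genes of the set were sparse in uninjured libraries. Ctsl stood at 32.1, 31.6 and 0 FPKM in controls, against 0.950, 0 and 0 FPKM in FoxM1-cKO SCs (difference -3.04, SE 1.503, limma adjusted p = 0.302), and was called without FoxM1fl/fl uninjured 3 (difference -4.72, limma adjusted p = 0.0430). Sqstm1 stood at 15.6, 0 and 165 FPKM against 0, 0 and 1.57 FPKM (difference -3.35, SE 1.59, limma adjusted p = 0.278). Lamp2 stood at 5.08, 4.32 and 4.76 FPKM against 6.50, 0 and 0 FPKM (difference -1.55, SE 1.26, limma adjusted p = 0.688). Ctsz had 1, 0 and 1 reads and Ctsd 2, 1 and 0 reads in FoxM1fl/fl SCs, and neither had a read in FoxM1-cKO SCs, so that no difference was detectable at this depth. FoxM1fl/fl libraries detected 5 to 7 of the 10 genes and FoxM1-cKO libraries 1 to 4. Over all genes, FoxM1fl/fl libraries detected 3423, 2920 and 1464 genes, and FoxM1-cKO libraries 1178, 1718 and 1365. Their depths were 600586, 642009 and 174827 reads in FoxM1fl/fl and 170701, 172898 and 238174 reads in FoxM1-cKO libraries. FoxM1fl/fl library 3, the shallowest of its group, detected 5 of the 10 genes. The part of depth in these counts was not tested. The summed myofibre markers stood at 4874 to 33280 FPKM in uninjured FoxM1fl/fl and 26764 to 43950 FPKM in uninjured FoxM1-cKO libraries, and their part in these values was not tested.

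Injury was compared within each genotype for the 8 genes other than Grn and Gabarapl1. These comparisons use the injured libraries on which the set was chosen. In FoxM1fl/fl SCs, Ctsd and Ctsb were called higher after injury, beside 18.8% of all tested genes, and none was called lower. Ctsd rose to the 1098, 1459 and 42.0 FPKM given above (log2 difference 7.96, SE 1.35, limma adjusted p = 0.00232). Ctsb rose from 0 to at least 9.61-fold over the floor of 3 reads per library (limma adjusted p = 0.00605), and 17.8-fold without FoxM1fl/fl uninjured 3. Psap and Ctsl lay higher in all 3 injured than in all 3 uninjured libraries but did not pass (limma adjusted p = 0.0634 and 0.0779). Sqstm1, Lamp1 and Ctsz had differences of 3.08, 2.05 and 2.15 (limma adjusted p = 0.154, 0.315 and 0.316), and their groups overlapped. Lamp2 differed by 0.18 (limma adjusted p = 0.952), with a sign that turned under 5 of 19 alternatives. The call of Sqstm1 was gained without FoxM1fl/fl uninjured 3 (limma adjusted p = 0.0271), that of Lamp1 without FoxM1fl/fl injured 2 (0.0290) and that of Psap without FoxM1-cKO uninjured 3 (0.0107).

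In FoxM1-cKO SCs, 5 of the 8 genes were called higher after injury, beside 23.4% of all tested genes, and none lower. They were Ctsb, Sqstm1, Ctsz, Ctsl and Lamp2. Sqstm1, at 0, 0 and 1.57 FPKM before injury, rose to 315, 167 and 236 FPKM (log2 difference 7.41, SE 1.59, limma adjusted p = 0.00611). Ctsb rose at least 12.4-fold over the floor (limma adjusted p = 0.00150) and Ctsz at least 23.4-fold (limma adjusted p = 0.0116), or 13.3-fold without FoxM1-cKO injured 3. Ctsl rose from 0.950, 0 and 0 FPKM to 418, 49.3 and 31.5 FPKM (difference 6.14, SE 1.503, limma adjusted p = 0.0116). Lamp2 was called by a small margin (difference 3.97, SE 1.26, limma adjusted p = 0.0365) and lost the call under 11 of 19 alternatives, among them leaving out FoxM1-cKO injured 1 (limma adjusted p = 0.0748) or 2 (0.106), FoxM1-cKO uninjured 2 (0.136) or 3 (0.105), FoxM1fl/fl uninjured 1 (0.0566) or FoxM1fl/fl injured 1 (0.0551).

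Ctsd and Lamp1 lay higher in every injured than in every uninjured FoxM1-cKO library without passing the test (limma adjusted p = 0.0729 and 0.101). Ctsd passed without FoxM1fl/fl injured 3 (limma adjusted p = 0.0136) and Lamp1 without FoxM1fl/fl injured 2 (0.0282), libraries that enter only through the shared spread. Psap differed by -1.75 (SE 1.71, limma adjusted p = 0.443) and would have been called lower without FoxM1-cKO uninjured 3 (difference -4.18, limma adjusted p = 0.0288). Without the 3 libraries that follow weighted sums none of the 8 genes was called in either genotype, and the differences stayed on the same side of 0 for each of these genes except Lamp2 in FoxM1fl/fl SCs. The injury effects of the genotypes were not tested against each other for these genes.

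The median injury difference of the 10 genes was 3.43 in FoxM1fl/fl and 4.32 in FoxM1-cKO SCs, beside 1.51 and 1.68 over all tested genes. More genes were detected in injured libraries of all kinds, and Gabarapl1 entered the test through its high group alone, so these medians are a description.

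Other genes of the same organelles were drawn from 8 lists of 170 genes, of which 150 were in the table and 65 were tested. Of the 65, 1 was called in the uninjured genotype comparison (1.53% of all tested genes), 3 in the injured one (7.81%), 11 after injury in FoxM1fl/fl (20.8%) and 11 after injury in FoxM1-cKO SCs (24.5%). The share of these genes was 1.54%, 4.62%, 16.9% and 16.9%. All 3 called in the injured genotype comparison, Ctss, Glb1 and Atp6v0b, reached 1 FPKM in their high group alone. They entered the test through it and had to differ, as did 198 of the 387 genes called there, so their values are given with no p. The same held for 2 of the 11 after injury in FoxM1fl/fl and 1 of the 11 in FoxM1-cKO SCs. Arsb in FoxM1fl/fl SCs, and Tax1bp1, Atg16l1 and Atg5 in FoxM1-cKO SCs, reached 1 FPKM in fewer than 3 libraries outside their high group. The filter thus favoured these calls, and their p-values below are not read as support. The median difference of the 65 genes was 0, -0.07, 1.55 and 1.93, beside 0, 0.32, 1.51 and 1.68 over all tested genes.

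**Figure D4:**
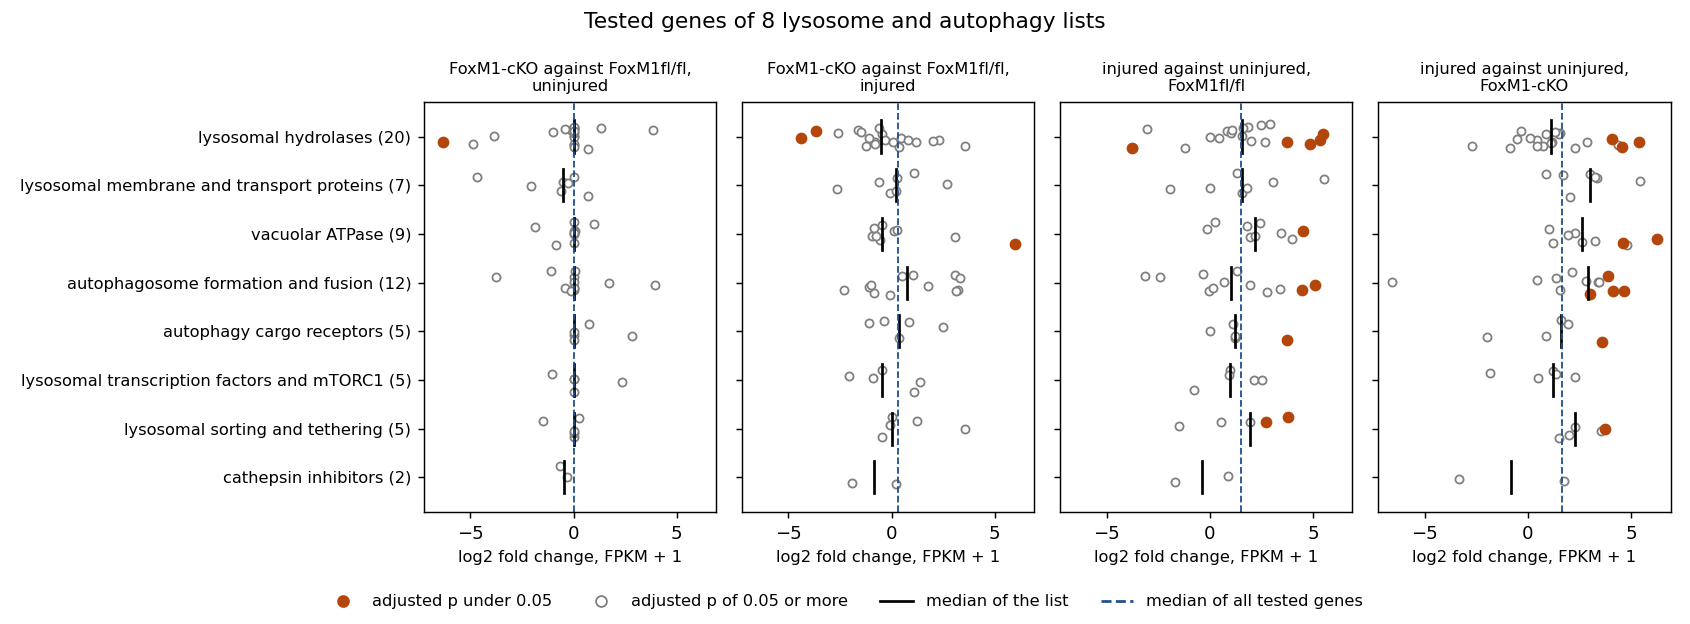
Each point is the log2 difference of 1 tested gene of 8 lysosome and autophagy lists (number tested in parentheses) in 4 comparisons, with the median of the list and of all tested genes. Most called genes lie to the right in the injury comparisons, and 4 genes in all are called between genotypes, 3 of which entered the test through their high group alone.

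Of 20 tested lysosomal hydrolases, those called in the injured genotype comparison were Ctss and Glb1. Ctss, a cysteine cathepsin of antigen-presenting cells, stood at 23.6, 35.1 and 26.0 FPKM in injured controls, against 0, 0.436 and 0.716 FPKM in injured FoxM1-cKO SCs (log2 difference -4.42, SE 0.70). Glb1, the lysosomal beta-galactosidase, stood at 11.1, 6.38 and 25.5 FPKM against 0, 0.211 and 0 FPKM (difference -3.65, SE 0.61). Both lay in the direction of Grn and Ctsd, but the filter fixed their separation of the injured groups, so nothing is read from it. Hexa, a subunit of beta-hexosaminidase, was at 63.4, 46.04 and 163 FPKM in uninjured controls, and at 0 in uninjured FoxM1-cKO SCs (limma adjusted p = 0.0371). That call was lost without FoxM1fl/fl uninjured 1 (limma adjusted p = 0.143), FoxM1-cKO uninjured 2 (0.147), FoxM1fl/fl injured 1 (0.0849) or FoxM1-cKO injured 1 (0.0623).

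After injury, 4 hydrolases were called higher and 1 lower in FoxM1fl/fl SCs (25% of the 20 tested, beside 20.8% of all tested genes). In FoxM1-cKO SCs 3 were called higher (15%, beside 24.5% of all tested genes). Lgmn, the asparagine endopeptidase that processes cathepsins, was at 0 in all uninjured libraries and rose in both genotypes, to 45.9, 58.3 and 24.4 FPKM in controls (limma adjusted p = 0.00617) and to 106, 23.4 and 3.90 FPKM in FoxM1-cKO SCs (0.0116). Ctss and Glb1, at 0 in all uninjured libraries, were the 2 that entered through the injured FoxM1fl/fl group alone. Ctsh, a cathepsin with aminopeptidase activity, rose from 0 to 1.02, 162 and 218 FPKM in FoxM1-cKO SCs (limma adjusted p = 0.0196), and Hexa to 19.3, 1.18 and 111 FPKM (0.0449). Outside the naming rule, Gusb, the beta-glucuronidase, was the other hydrolase that rose in FoxM1fl/fl SCs (from 0 to 237, 368 and 0 FPKM, limma adjusted p = 0.0487). FoxM1fl/fl injured 1 follows a weighted sum of libraries 2 and 3, so the rise of Gusb rests on library 2. Arsb, an arylsulfatase, was the 1 that fell (from 48.7, 57.5 and 0 to 0, 0.193 and 0 FPKM, limma adjusted p = 0.0476). The calls of Lgmn held when any 1 library was left out. Ctsh lost its call without FoxM1-cKO uninjured 2 (limma adjusted p = 0.0632), injured 2 (0.0657) or injured 3 (0.0619). Hexa after injury lost its call for 8 of the 12 libraries left out (limma adjusted p up to 0.135).

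Of 9 tested subunits of the vacuolar ATPase, the proton pump that acidifies the lysosome, Atp6v0b stood at 568, 60.8 and 12.1 FPKM in injured FoxM1-cKO SCs against 0, 0.779 and 0 FPKM in injured controls (log2 difference 5.996, SE 1.16), and its call in that comparison was lost without FoxM1fl/fl injured 1. With injury 1 of the 9 was called in FoxM1fl/fl and 2 in FoxM1-cKO SCs (11.1% and 22.2%, beside 20.8% and 24.5% of all tested genes). Atp6v0e rose with injury in both genotypes, from 1.78, 1.11 and 4.07 to 72.4, 93.1 and 53.7 FPKM in controls (limma adjusted p = 0.0171) and from 0, 4.11 and 5.97 to 25.7, 121 and 155 FPKM in FoxM1-cKO SCs (0.0129). The former call was lost without FoxM1fl/fl uninjured 1 (limma adjusted p = 0.0677), uninjured 2 (0.0517) or injured 1 (0.0691). None of the 7 tested lysosomal membrane and transport genes was called in any comparison. At an unadjusted p under 0.05 limma gave 1, 0, 1 and 4 of them in the uninjured genotype, injured genotype, FoxM1fl/fl injury and FoxM1-cKO injury comparisons, beside 18.9%, 23.1%, 42.5% and 39.4% of all tested genes.

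Of 12 tested genes of autophagosome formation and fusion, 2 rose with injury in FoxM1fl/fl and 4 in FoxM1-cKO SCs, beside 18.8% and 23.4% of all tested genes, and none was called between genotypes. At an unadjusted p under 0.05 limma gave 1 in the uninjured and 3 in the injured genotype comparison, beside 18.9% and 23.1% of all tested genes. Wdr45b, which encodes a phosphoinositide-binding WIPI protein, rose from 0 to 32.1, 39.7 and 29.6 FPKM in controls (limma adjusted p = 0.00238) and to 9.85, 12.99 and 33.6 FPKM in FoxM1-cKO SCs (0.00571). Map1lc3b, the LC3B of autophagosome membranes, rose from 0 to 69.9, 25.1 and 8.20 FPKM in FoxM1-cKO SCs (limma adjusted p = 0.0214), and Atg16l1, which directs LC3 conjugation, to 87.0, 1.57 and 13.96 FPKM (0.0183). Map1lc3b lost its call without FoxM1-cKO uninjured 2 (limma adjusted p = 0.0687), uninjured 3 (0.0514) or injured 1 (0.0658), and Atg16l1 without FoxM1-cKO uninjured 2 (0.0632). Outside the naming rule, Vmp1, an endoplasmic reticulum protein, was the other gene that rose in FoxM1fl/fl SCs (limma adjusted p = 0.0470). It went from 0 to 80.9, 128 and 0 FPKM, and library 1 follows a weighted sum of 2 and 3, so this rise rests on library 2. Atg5, a conjugation partner, was the other in FoxM1-cKO SCs (from 0 to 15.6, 1.76 and 10.1 FPKM, limma adjusted p = 0.0293).

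Of 5 tested cargo receptors beside Sqstm1, 1 was called after injury in each genotype (20%, beside 20.8% and 24.5% of all tested genes). Bnip3l, a receptor for mitochondria, rose from 0 to 12.4, 5.97 and 26.0 FPKM in injured controls (limma adjusted p = 0.0279). Tax1bp1, which binds ubiquitin-tagged cargo, rose from 0 to 24.8, 21.3 and 1.94 FPKM in injured FoxM1-cKO SCs (limma adjusted p = 0.0129). Of 5 tested sorting and tethering genes, 2 were called in FoxM1fl/fl and 1 in FoxM1-cKO SCs (40% and 20%). M6pr, a mannose 6-phosphate receptor that sorts hydrolases to the lysosome, rose from 0 to 26.7, 45.01 and 1.11 FPKM in controls (limma adjusted p = 0.0306) and to 17.0, 8.73 and 12.1 FPKM in FoxM1-cKO SCs (0.0270). Vps35, of the retromer that returns such receptors, rose from 0 to 9.05, 13.1 and 1.10 FPKM in controls (0.0372). The calls of M6pr were lost for 6 of the 12 libraries left out in FoxM1fl/fl SCs and for 4 in FoxM1-cKO SCs (limma adjusted p up to 0.131 and 0.0842), and that of Vps35 for 8 (up to 0.131). Bnip3l lost its call without FoxM1fl/fl uninjured 1 (limma adjusted p = 0.0955), uninjured 2 (0.0740) or injured 1 (0.0906), and Tax1bp1 without FoxM1-cKO uninjured 2 (0.0531). Of the transcription factors that drive lysosomal genes, Tfeb was above 0 in 3 libraries, at 8.33 and 20.2 FPKM in FoxM1fl/fl injured 1 and 3 and 1.66 FPKM in FoxM1-cKO injured 3. FoxM1fl/fl injured 1 follows a weighted sum of libraries 2 and 3, so the former level rests on library 3. Tfe3 (1.27, 0.187 and 0 FPKM) and Mitf (0.287, 0 and 0 FPKM) were above 0 in injured FoxM1-cKO libraries only. Of the list that holds these factors, none of the 5 tested genes was called in any comparison, beside 1.53% to 24.5% of all tested genes.

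The starts of 9 of the 10 genes were matched in RefSeq (GRCm38.p6), with 10 start sites, and the 250 bases before each were searched. The letters searched were CACGTG, the E-box core that Tfeb and related factors are known to bind, and the forms of the site read by FoxM1, which are CAAACAA with its variant TAAACAA and CAAATAA with its variant TAAATAA, each on both strands. A match is a description of the letters and not a bound site. CACGTG was present before 3 of the 10 start sites, those of Lamp1, Ctsd and Ctsl, beside 6.02% of all 32851 promoters of the same length. The 4 copies before Lamp1 compare with 0.0213% of promoters that hold 4 or more. They are shown since Lamp1 had the widest range in injured controls on the log2 scale. The capitals mark CACGTG in the stretch at chr8:13158911-13159160 (plus strand).
Lamp1: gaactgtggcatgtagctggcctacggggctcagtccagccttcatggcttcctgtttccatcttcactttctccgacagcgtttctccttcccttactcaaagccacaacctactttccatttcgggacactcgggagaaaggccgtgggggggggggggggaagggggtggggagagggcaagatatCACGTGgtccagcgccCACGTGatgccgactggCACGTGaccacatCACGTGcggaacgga

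Ctsd, the gene of the set closest to Grn in pattern, had 2 copies (0.429% of promoters hold 2 or more), each shown here in 30 bases of the minus strand, at chr7:142388048-142388077 and chr7:142387908-142387937. Grn itself had neither CACGTG nor a FoxM1 site in this window. The gene spans given above come from another annotation than the RefSeq starts. The proximal Ctsd copy, the searched window of Ctsl and part of that of Grn lie inside those spans.
Ctsd, distal: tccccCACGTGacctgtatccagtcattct
Ctsd, proximal: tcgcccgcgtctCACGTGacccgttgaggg

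The FoxM1 letters were present before 3 of the 10 start sites, those of Gabarapl1, Ctsd and Ctsz, beside 15.5% of all promoters. Gabarapl1, the gene seen in injured FoxM1-cKO SCs alone, held a CAAATAA that overlapped with a TAAACAA, 98 and 94 bases before its start, and 3.18% of promoters hold 2 or more such matches. The capitals mark both in the stretch at chr6:129532942-129533159 (plus strand).
Gabarapl1: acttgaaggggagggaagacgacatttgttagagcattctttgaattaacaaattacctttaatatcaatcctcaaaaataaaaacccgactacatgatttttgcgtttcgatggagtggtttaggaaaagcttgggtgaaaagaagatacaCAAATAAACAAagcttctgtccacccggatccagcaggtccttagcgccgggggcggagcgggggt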

How the data were processed

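RNA of about 800 sorted SCs per library was read in 150-base pairs. Per the labels and the study's methods, Bowtie 0.12.9 placed reads on mm10, and the authors then used Cufflinks 2.1.1 for expression, HTSeq for counting and DESeq2 for tests. Their deposited table gives FPKM for 13775 genes in 12 libraries, and its column labels gave the groups. The 10 genes and all lists were chosen with earlier results of these data known.

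Tests used log2(FPKM + 1), a scale that understates the change of low genes. A gene was tested if 3 or more of the 12 libraries reached 1 FPKM, which left 4956 genes, all 10 among them. limma 3.58.1 in R 4.3.3 estimated a mean per group, with a trend in the variances. Benjamini-Hochberg adjustment ran over the 4956 genes, and calls needed an adjusted p under 0.05. The script was tested on simulated data. Reads and depth were recovered from 3274 genes with 1 transcript and the longest transcript of each gene, and intervals of counting error are not given for FPKM. List genes are named where called, with a group mean of at least 5 FPKM and no overlap, at most 3 per list and comparison. Other named list genes (Gabarap, Map1lc3a, Tfeb, Tfe3, Mitf, Gusb, Arsb, Vmp1 and Atg5) were chosen after their values were seen. Likeness was Pearson r over 12 libraries, among tested genes with a group mean of at least 5 FPKM, and 1 gene so found is not reported here. Promoters came from RefSeq tables of GRCm38.p6. Alternatives were pseudocounts of 0.1 and 5 FPKM, no filter, median-ratio scaling, a fit of the compared groups alone, a replicate block, leaving out the 3 libraries that follow weighted sums, and leaving out each library. Python 3.11.15 with numpy 2.4.6, pandas 2.3.3 and matplotlib 3.10.9 made the rest.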

Additional observations from a re-analysis of the deposited data

Results flagged for a closer look

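Of the genes named in the report, 2 genes of the lists had groups that separated in opposite directions under the same contrast, and in neither was the difference between the contrasts tested. Hexa was lower after injury in FoxM1fl/fl SCs, at 10.6, 20.3 and 2.76 FPKM against 63.4, 46.04 and 163 FPKM (log2 difference -3.02, limma adjusted p = 0.112), and higher after injury in FoxM1-cKO SCs (difference 4.09, limma adjusted p = 0.0449). Map1lc3b was lower in uninjured FoxM1-cKO SCs, at 0 in all 3 libraries against 12.5, 1.13 and 85.7 FPKM (difference -3.76, limma adjusted p = 0.169), and higher in injured FoxM1-cKO SCs, at 69.9, 25.1 and 8.20 FPKM against 1.51, 0.376 and 3.99 FPKM (difference 3.32, limma adjusted p = 0.151). None of the 10 genes did so.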

How the results depend on the processing

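For the tested differences of the 10 genes, 402 values over 19 alternatives kept their direction and their side of the threshold, 19 lost a call and 11 gained one. Another 5 turned direction, all of them Lamp2. Lamp2 after injury in FoxM1fl/fl SCs, at 0.18 and not called, was -0.03 with a pseudocount of 0.1 FPKM, -1.17 with median-ratio scaling, -0.15 without the 3 libraries that follow weighted sums, -0.19 without FoxM1fl/fl injured 1 and -0.44 without FoxM1fl/fl injured 2, and with 1 library left out it ran from -0.44 to 1.19. Ctsl in FoxM1-cKO SCs lost its injury call with median-ratio scaling (limma adjusted p = 0.0512), and Ctsz in a fit of its groups alone (0.0621). The depth of uninjured libraries, at 0 to a few reads for most of the 10 genes, limits every comparison with them. Median-ratio scaling moved the median injury difference of all tested genes from 1.51 to 1.09 in FoxM1fl/fl and from 1.68 to 1.28 in FoxM1-cKO SCs, and the injured genotype median from 0.32 to 0.12.

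The counts below are in the order uninjured genotype, injured genotype, FoxM1fl/fl injury and FoxM1-cKO injury, for which limma called 76, 387, 1029 and 1215 of 4956 genes and 1, 3, 11 and 11 of the 65 list genes. With a pseudocount of 0.1 FPKM the uninjured genotype count was 158, with 2 list genes, and FoxM1-cKO injury had 20 list genes. With 5 FPKM the uninjured genotype count was 29 and the injury counts 527 and 741, with 0, 5 and 5 list genes. With no filter the counts were 24, 93, 431 and 601, with 0 list genes in the uninjured genotype comparison and 5 in each injury comparison. Median-ratio scaling gave 2 list genes for the uninjured genotype and 806 genes for FoxM1-cKO injury. Fits of the compared groups alone gave 0 and 2 genes and 0 list genes for the genotypes, and 687 genes with 7 list genes for FoxM1-cKO injury. Of the uninjured genotype, 266 genes had an unadjusted p under 0.05 there. Without the 3 libraries that follow weighted sums every count was 0 for genes and list genes. The cause of these shifts was not tested.

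With 1 library left out, the counts of genes ran from 18 to 383, 103 to 725, 389 to 1480 and 606 to 1362, those of list genes from 0 to 4, 2 to 7, 4 to 17 and 4 to 18, and those of the 10 genes in the uninjured genotype comparison from 0 to 1. The lowest came without FoxM1fl/fl uninjured 1 (18), FoxM1fl/fl injured 1 (103 and 389) and FoxM1-cKO uninjured 2 (606), which are the libraries that follow weighted sums. The replicate block gave 51, 313, 959 and 1139 genes, 0, 3, 9 and 13 list genes and 0 of the 10 genes. Deviations of same-numbered libraries from their group means had r from -0.032 to 0.054 (18 pairs). Libraries of unlike number were not compared in this way, and many uninjured values are 0. Whether the replicate numbers pair the libraries therefore cannot be told from this.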
